A study of Homo sapiens with 6 samples.

Results

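The genes of the interferon response and of MHC class I antigen presentation were followed in human umbilical vein endothelial cells (HUVECs) transfected with 8OH-G miR-483 or with miR-483. The set was a list of 49 gene symbols, of which 39 belong to the interferon response and 10 to the class I pathway. A symbol counted as found where its name stood in the gene column of all 6 libraries. By this rule 44 of the 49 genes had a value, among 18317 names in all. MX2, CXCL10, RSAD2, EPSTI1 and CMPK2 had none and were not analysed here.

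HUVECs are primary endothelium from the cord vein, and these came from a commercial supplier. One group of 3 libraries came from cells given 8OH-G miR-483, the microRNA miR-483 with an oxidised guanine, and the other group of 3 libraries came from cells given miR-483. Both groups were transfected with a lipid reagent, Lipofectamine RNAiMAX, and RNA was taken 48 hours later, on day 2. A scramble control named in the protocol was not analysed here, so each difference is one between the 2 microRNA forms and can come from either of them. The labels do not state the arm of miR-483 or which guanine was oxidised. Whether replicates are separate cultures is not said either, so the p-values reflect library-to-library spread, which may be technical.

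Interferons are secreted proteins made when a cell senses foreign or misplaced nucleic acid. Their receptors activate STAT2 and its partners, which join IRF9 on an interferon-stimulated response element (ISRE) in the promoters of antiviral genes, while interferon-gamma acts through a gamma-activated site (GAS). The same signals raise the class I pathway, in which TAP1 and TAP2 carry peptides to heavy chains that pair with beta-2 microglobulin and display them to T cells, and endothelial cells carry class I at their surface without stimulation.

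Values were taken as FPKM, a level corrected for gene length and sequencing yield, a unit inferred from totals of 1396537 to 1687283 per library. The depth behind them is not known, and errors are the spread over 3 libraries. Mitochondrial rows made up 71.3% to 76.6% of each total. Of the members, 10 stood on more than 1 row (HLA-B, HLA-C, HLA-E, HLA-F, B2M, TAP1, TAP2, TAPBP, IRF7 and IFI27), and the highest value per library was used. The rows of such a name held 1 value in 5 libraries, but in miR-483 replicate 1 they differed, since all rows but 1 were listed at 0. All 6 endothelial markers had a row, and their summed level was 780 to 967 FPKM with 8OH-G miR-483 and 1493 to 1534 FPKM with miR-483. PECAM1, CDH5, VWF, TEK and TIE1 fell with 8OH-G miR-483, and CLDN5 was not called. Of 6 leukocyte markers only LYZ and CD68 had a row, and their sum was 6.49 to 7.79 FPKM with 8OH-G miR-483 and 14.2 to 17.7 FPKM with miR-483. Of 3 plasmacytoid dendritic cell markers only IL3RA had a row, at 0.320 to 0.589 FPKM with 8OH-G miR-483 and 1.15 to 1.91 FPKM with miR-483. PTPRC, CD14, CD3E, MS4A1, CLEC4C, LILRA4 and all 3 erythroid markers had no row. Epithelial markers (2 of 4 with a row) summed to 122 to 137 FPKM with 8OH-G miR-483 and 67.1 to 76.5 FPKM with miR-483, and mural and fibroblast markers (3 of 5) to 824 to 1017 FPKM with 8OH-G miR-483 and 617 to 839 FPKM with miR-483. The epithelial difference came from KRT18, with means of 120 FPKM with 8OH-G miR-483 and 61.1 FPKM with miR-483. KRT8 was not called, at 11.0 FPKM with 8OH-G miR-483 and 11.5 FPKM with miR-483. Most of the mural and fibroblast sum was RGS5, at means of 890 FPKM with 8OH-G miR-483 and 712 FPKM with miR-483. RGS5 and ACTA2 were not called, and LUM was too low to test. The part of these marker differences in the results was not tested. In bulk RNA, fewer cells of a type and less RNA per cell cannot be told apart.

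Interferon acts on its target genes through their promoters, so the members' promoter sequences were read. RefSeq promoter windows on GRCh38.p14, each 300 bases from 250 before to 50 after a gene's start, were found for 40 of the 49 members, DDX58 under the symbol RIGI. The other 9 (IFIT2, MX2, OAS2, OASL, IRF7, USP18, IFITM2, HLA-E and NLRC5) had no window. Of the windows shown, OAS3 and OAS1 are neighbouring genes of 1 family whose values moved in opposite directions, and IFI44 had the highest log2(FPKM + 1) fold change among the tested members, OAS3 having the higher ratio of means. IFITM3 and IRF9 are an abundant effector and a transcription factor that fell. TAP2 and TAPBP belong to the peptide-loading machinery and were called in opposite directions. Capitals mark ISRE or GAS matches, and each sequence reads 5′ to 3′ along its gene.

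OAS3, chr12:112938224-112938523, plus strand: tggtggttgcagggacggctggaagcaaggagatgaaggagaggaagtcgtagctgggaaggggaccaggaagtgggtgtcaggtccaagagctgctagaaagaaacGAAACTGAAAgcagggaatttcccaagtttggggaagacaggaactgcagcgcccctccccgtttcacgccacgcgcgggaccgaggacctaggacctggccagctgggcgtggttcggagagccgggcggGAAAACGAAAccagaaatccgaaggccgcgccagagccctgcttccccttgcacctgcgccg

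OAS1, chr12:112906712-112907011, plus strand: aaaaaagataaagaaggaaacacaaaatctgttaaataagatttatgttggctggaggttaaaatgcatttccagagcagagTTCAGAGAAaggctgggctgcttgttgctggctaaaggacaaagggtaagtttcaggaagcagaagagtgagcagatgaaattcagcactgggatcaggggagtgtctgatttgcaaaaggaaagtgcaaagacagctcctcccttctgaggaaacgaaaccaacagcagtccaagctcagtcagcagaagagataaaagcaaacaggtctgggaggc

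IFI44, chr1:78649539-78649838, plus strand: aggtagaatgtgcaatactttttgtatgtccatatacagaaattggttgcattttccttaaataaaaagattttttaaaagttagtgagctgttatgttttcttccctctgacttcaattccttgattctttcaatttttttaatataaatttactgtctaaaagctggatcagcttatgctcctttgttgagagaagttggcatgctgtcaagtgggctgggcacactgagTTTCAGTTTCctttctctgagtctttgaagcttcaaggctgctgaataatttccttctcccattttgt

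IFITM3, chr11:320811-321110, minus strand: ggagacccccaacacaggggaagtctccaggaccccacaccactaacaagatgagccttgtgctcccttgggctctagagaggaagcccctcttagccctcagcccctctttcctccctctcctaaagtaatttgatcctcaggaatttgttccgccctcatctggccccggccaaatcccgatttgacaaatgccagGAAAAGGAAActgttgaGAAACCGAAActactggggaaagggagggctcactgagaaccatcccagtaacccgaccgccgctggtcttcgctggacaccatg

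IRF9, chr14:24161015-24161314, plus strand: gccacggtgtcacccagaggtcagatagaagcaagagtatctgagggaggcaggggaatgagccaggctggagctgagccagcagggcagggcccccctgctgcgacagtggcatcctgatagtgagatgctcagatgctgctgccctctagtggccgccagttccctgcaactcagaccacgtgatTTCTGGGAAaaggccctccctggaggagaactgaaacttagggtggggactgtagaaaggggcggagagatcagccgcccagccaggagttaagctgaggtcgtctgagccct

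TAP2, chr6:32838690-32838989, minus strand: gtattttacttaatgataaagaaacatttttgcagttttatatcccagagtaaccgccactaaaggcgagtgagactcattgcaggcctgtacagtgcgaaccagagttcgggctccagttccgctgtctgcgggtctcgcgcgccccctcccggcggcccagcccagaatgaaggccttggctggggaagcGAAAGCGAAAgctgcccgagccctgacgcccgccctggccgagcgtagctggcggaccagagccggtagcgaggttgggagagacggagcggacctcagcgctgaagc

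TAPBP, chr6:33314029-33314328, minus strand: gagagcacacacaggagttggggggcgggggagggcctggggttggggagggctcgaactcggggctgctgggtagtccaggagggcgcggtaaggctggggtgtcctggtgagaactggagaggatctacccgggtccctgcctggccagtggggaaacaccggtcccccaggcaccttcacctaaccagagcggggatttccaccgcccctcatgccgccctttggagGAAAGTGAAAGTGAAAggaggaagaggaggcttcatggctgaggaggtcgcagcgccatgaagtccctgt

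The ISRE letters searched were GAAA, any 2 bases and GAAA again, and the GAS letters were TTCNNNGAA, on both strands. Positions are those of a match's first base along the gene, counted back from the start. OAS3 held ISRE matches at -143 and -12, whereas OAS1 held none of that spacing and had a GAS match at -168. GAAA repeats closer together were not searched, and the windows of OAS1 and OAS3 both hold gaaacgaaa. IFI44 had an ISRE match on the opposite strand at -18 of the window shown. IFITM3 had ISRE matches at -52 and -35. IRF9 had a GAS match only, at -63. TAP2 had a single ISRE match at -58, and TAPBP had overlapping ones at -20 and -14.

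Over all member windows, 31 of 52 (59.6%) held an ISRE match, against 1255 of 35116 windows of all genes (3.57%). A GAS match stood in 12 of 52 member windows (23.1%) and in 7.66% of all windows. Matches overlapped each other within 7 member windows for ISRE, and an ISRE match overlapped a GAS match in 6. Of 53 ISRE matches, 51 lay before the start and 23 within 100 bases before it. Counted by gene, 5 of the 6 matched members called higher held an ISRE match, against 6 of the 15 called lower and 9 of the 10 not called. GAS matches were in 0 of those 6 higher members, in 7 of the 15 lower members and in 1 of the 10 not called. Over all genes, 4.38% held an ISRE match and 9.38% a GAS match. The ISRE counts leave out closer GAAA repeats, such as those in OAS1, DDX58, XAF1 and IFI35, all called lower. They therefore do not show that lower members lack such elements. A match describes letters in a window and was not tested as a binding site.

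Most interferon and class I genes that changed were lower in cells given 8OH-G miR-483. The fall took in HLA-B, HLA-C and HLA-E, which encode class I heavy chains, the interferon-activated factors STAT2 and IRF9 and the abundant IFITM genes, while OAS3, IFI44, ISG20 and USP18, which removes ISG15 from proteins, went the other way. Of the 44 members with a value, 36 reached 1 FPKM in at least 3 libraries and were tested with limma on log2(FPKM + 1), with Benjamini-Hochberg adjustment over all 12712 names tested. Fold changes are 8OH-G miR-483 over miR-483 on that scale, which understates changes of low genes. At an adjusted p under 0.05, 24 members were called (66.7%), against 55.4% of all names tested. Higher calls numbered 7 members (19.4%), against 34.9% of all names. One of these, HERC6, passed the filter only through the 8OH-G miR-483 libraries. IFIT5 and OAS3 had fewer than 3 miR-483 libraries at 1 FPKM, so they also needed the 8OH-G miR-483 libraries to be tested. Lower calls numbered 17 members (47.2%), against 20.5% of all names. The median log2 fold change was -0.22 over the members, with an interquartile range of -0.57 to 0.08, and 0.09 over all names, with an interquartile range of -0.18 to 0.38. Among all names called, 63.0% were higher as deposited, 49.9% under median-ratio scaling and 49.2% under quantile normalization, and either step moved the median of all names by -0.10.

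**Figure D1:**
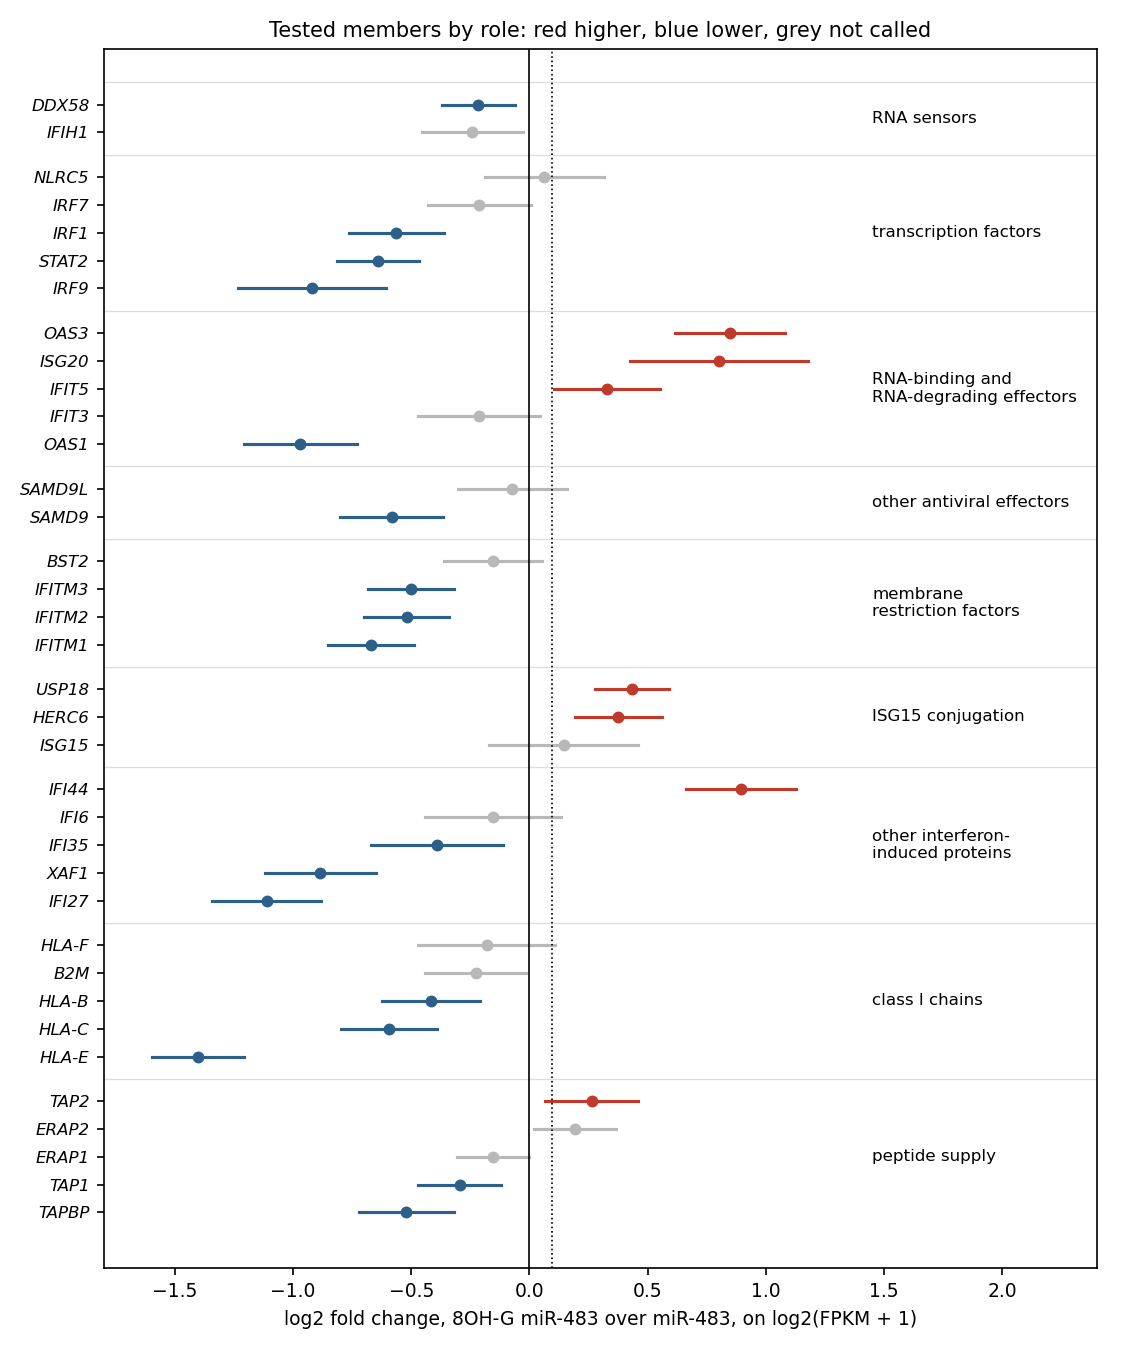
Log2 fold change of each tested member (points, 8OH-G miR-483 over miR-483 on log2(FPKM + 1)) with its 95% confidence interval (bars), and the median over all names tested (dotted line). Lower calls run from -1.40 for HLA-E to -0.22 for DDX58, and higher calls from 0.26 for TAP2 to 0.89 for IFI44.

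The class I heavy chain genes HLA-B, HLA-C and HLA-E fell, and HLA-E fell the most. HLA-E, which presents leader peptides of other class I chains to natural killer cells, had 135, 140.3 and 119 FPKM in the 8OH-G miR-483 libraries, against 327, 356 and 364 FPKM in the miR-483 libraries. The 8OH-G miR-483 libraries lay close together, and the highest of them was under all miR-483 libraries by a wide gap. Its mean was 62.3% lower with 8OH-G miR-483 (limma log2 fold change -1.40, SE 0.09, adjusted p = 4.84e-06), the largest change in size among the tested members. The classical heavy chain gene HLA-C had 64.6, 72.3 and 58.3 FPKM in the 8OH-G miR-483 libraries, against 93.9, 104 and 97.8 FPKM in the miR-483 libraries. The groups did not overlap, and the mean was 33.9% lower (limma log2 fold change -0.59, SE 0.09, adjusted p = 0.000568).

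HLA-B, the other classical heavy chain with a value here, had 18.8, 19.3 and 15.3 FPKM in the 8OH-G miR-483 libraries, against 23.4, 24.8 and 23.8 FPKM in the miR-483 libraries. All 8OH-G miR-483 libraries were below the miR-483 libraries, with replicate 3 the lowest (limma log2 fold change -0.42, SE 0.09, adjusted p = 0.00434). The minor heavy chain HLA-F was low, at 1.43, 1.43 and 0.822 FPKM in the 8OH-G miR-483 libraries, against 1.32, 1.51 and 1.69 FPKM in the miR-483 libraries. The groups overlapped and the gene was not called (limma log2 fold change -0.18, adjusted p = 0.256). B2M, the shared light chain beta-2 microglobulin, had 401, 411 and 355 FPKM in the 8OH-G miR-483 libraries, against 426, 501 and 441 FPKM in the miR-483 libraries. Its groups did not overlap, but the difference did not pass the threshold (limma log2 fold change -0.23, SE 0.09, adjusted p = 0.0666). It was called lower by limma with median-ratio scaling (adjusted p = 0.0117), quantile normalization (0.0255) or a replicate block (0.0227). Class I genes are highly similar to one another, so reads may have been divided between them in a way the files do not show.

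The heavy chain genes differed between the groups to unequal degrees. The summed level of HLA-B, HLA-C, HLA-E and HLA-F was 216 ± 20.3 FPKM with 8OH-G miR-483 and 473 ± 23.9 FPKM with miR-483 (mean ± SD, n = 3 each). HLA-E made up 61.0% ± 0.782 of that sum with 8OH-G miR-483 and 73.8% ± 0.780 with miR-483. The level of B2M was 1.81 ± 0.0384 times the heavy chain sum with 8OH-G miR-483 and 0.965 ± 0.0636 times the sum with miR-483. These shares and ratios use values scaled for gene length and are given as a description.

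**Figure D2:**
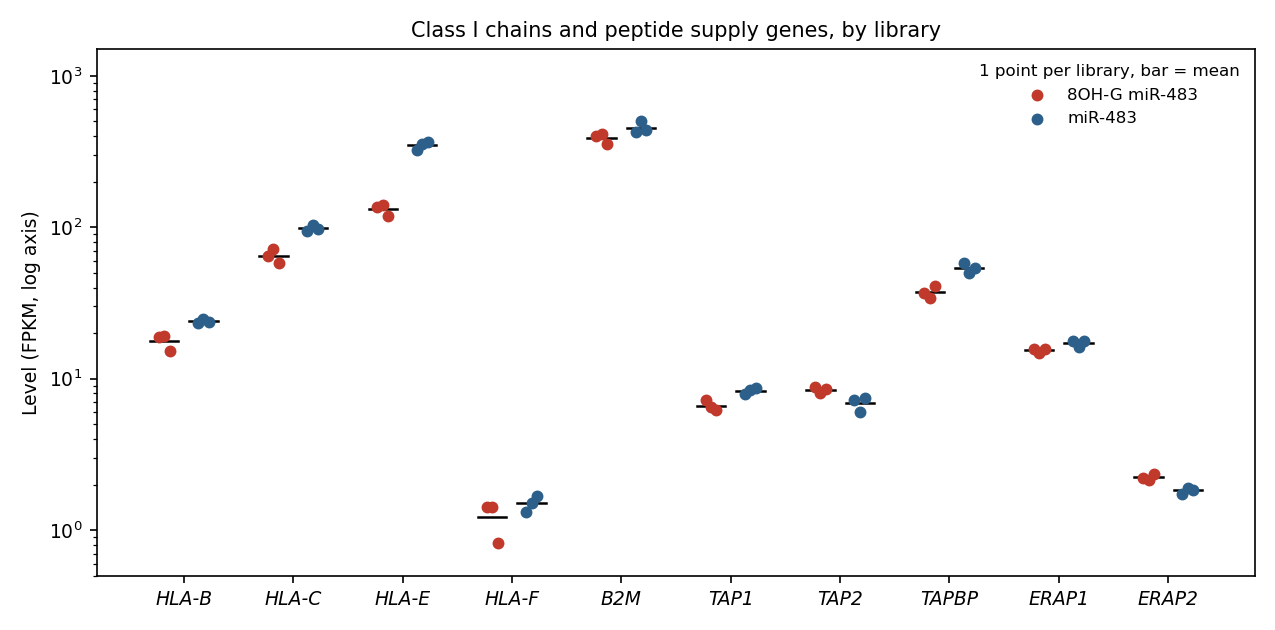
FPKM of class I chain and peptide-supply genes in each library (points, log axis), with the group mean (bar), 8OH-G miR-483 left of miR-483. HLA-E shows the widest gap, with 8OH-G miR-483 libraries at 119 to 140.3 FPKM and miR-483 libraries at 327 to 364 FPKM.

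Among the genes that supply peptides, the peptide-loading chaperone TAPBP and the transporter subunit TAP1 fell, and the other transporter subunit TAP2 rose. TAPBP (tapasin) had 36.8, 33.95 and 40.8 FPKM in the 8OH-G miR-483 libraries, against 57.8, 49.5 and 53.9 FPKM in the miR-483 libraries. The groups did not overlap, and the mean was 30.8% lower with 8OH-G miR-483 (limma log2 fold change -0.52, SE 0.09, adjusted p = 0.00112). TAP1 averaged 6.62 ± 0.534 FPKM with 8OH-G miR-483 and 8.35 ± 0.427 FPKM with miR-483 (limma log2 fold change -0.30, SE 0.08, adjusted p = 0.0111). TAP2 averaged 8.47 ± 0.405 FPKM with 8OH-G miR-483 and 6.91 ± 0.749 FPKM with miR-483 (limma log2 fold change 0.26, SE 0.09, adjusted p = 0.0293). The call on TAP2 was not kept by either scaling, at limma adjusted p = 0.143 (median-ratio) and 0.298 (quantile), while its direction stayed. It was also lost without 8OH-G miR-483 replicate 1, 8OH-G miR-483 replicate 3 or miR-483 replicate 2, at limma adjusted p = 0.0911, 0.0692 and 0.0900.

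The aminopeptidases ERAP1 and ERAP2, which trim peptides in the endoplasmic reticulum, were not called (-0.16 and 0.19 on the log2 scale). ERAP1 was called lower under both scalings, at adjusted p = 0.0104 and 0.00912. Over the 10 class I pathway genes, all tested, 1 was called higher and 5 lower, with a median log2 fold change of -0.26. Taking the mean over a name's rows, not the highest, turned the called HLA-B, HLA-C, TAP1 and TAPBP positive, none of them then called. It ended the call on HLA-E at a log2 fold change of -0.48 and an adjusted p of 0.689, that on IFI27 at an adjusted p of 0.096 and that on TAP2 at an adjusted p of 0.257. Under that setting the rows listed at 0 in miR-483 replicate 1 enter the mean. B2M, HLA-F and IRF7 also turned positive there (0.10, 0.14 and 0.05), again not called. With miR-483 replicate 1 left out and the highest value used, the only member call lost was that on DDX58. With repeated names left out, 26 members were tested and 11 were called lower, with no call changed.

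The transcription factors that carry the interferon signal fell or were not called. STAT2, a subunit of the complex that type I interferon activates, had 17.8, 16.6 and 16.4 FPKM in the 8OH-G miR-483 libraries, against 27.98, 24.6 and 28.5 FPKM in the miR-483 libraries. Each 8OH-G miR-483 library was well below the lowest miR-483 library, and the mean was 37.3% lower (limma log2 fold change -0.64, SE 0.08, adjusted p = 0.000153). IRF9, the DNA-binding subunit of that complex, had 3.78, 4.25 and 2.68 FPKM in the 8OH-G miR-483 libraries, against 8.16, 7.96 and 6.59 FPKM in the miR-483 libraries. The groups were clearly apart, with replicate 3 the lowest in each (limma log2 fold change -0.92, SE 0.14, adjusted p = 0.000568). IRF1, a factor induced by interferon-gamma that acts on class I and antiviral promoters, had 5.31, 5.63 and 4.54 FPKM in the 8OH-G miR-483 libraries, against 7.54, 8.14 and 8.57 FPKM in the miR-483 libraries. The groups did not overlap (limma log2 fold change -0.56, SE 0.09, adjusted p = 0.000748).

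IRF7, which drives interferon-alpha genes, had 5.23, 5.68 and 4.39 FPKM in the 8OH-G miR-483 libraries, against 5.59, 6.31 and 6.23 FPKM in the miR-483 libraries. One 8OH-G miR-483 library lay above the lowest miR-483 library and the gene was not called (limma log2 fold change -0.21, adjusted p = 0.0887), though both scalings called it lower (adjusted p = 0.0213 and 0.0114). NLRC5, the class I transactivator, was at 1.92 to 2.68 FPKM with 8OH-G miR-483 and 2.07 to 2.49 FPKM with miR-483, and was not called (limma log2 fold change 0.06, adjusted p = 0.647). Among the RNA sensors, DDX58 (RIG-I) averaged 11.1 ± 0.576 FPKM with 8OH-G miR-483 and 13.1 ± 0.436 FPKM with miR-483 (limma log2 fold change -0.22, SE 0.07, adjusted p = 0.0244). The DDX58 call was lost without 8OH-G miR-483 replicate 1, 8OH-G miR-483 replicate 2, miR-483 replicate 1 or miR-483 replicate 3. IFIH1 (MDA5) averaged 1.19 ± 0.137 FPKM with 8OH-G miR-483 and 1.597 ± 0.208 FPKM with miR-483 and was not called (limma log2 fold change -0.24, SE 0.09, adjusted p = 0.0542), but both scalings called it lower.

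The effectors that bind or degrade RNA moved in both directions, with 3 of 5 tested called higher and 1 lower. OAS1 and OAS3 both make 2′-5′ oligoadenylates, which activate the nuclease RNase L, and they lie next to each other on chromosome 12. OAS3 had 2.75, 2.22 and 2.87 FPKM in the 8OH-G miR-483 libraries, against 1.12, 0.827 and 1.06 FPKM in the miR-483 libraries. The lowest 8OH-G miR-483 library was above the highest miR-483 library, and the ratio of means was 2.61 (limma log2 fold change 0.85, SE 0.10, adjusted p = 0.000164). OAS1 had 2.19, 2.37 and 2.88 FPKM in the 8OH-G miR-483 libraries, against 5.08, 6.33 and 6.04 FPKM in the miR-483 libraries. It was 57.3% lower on average with 8OH-G miR-483, again with no overlap (limma log2 fold change -0.97, SE 0.10, adjusted p = 9.15e-05). The ratio of OAS1 to OAS3, both per length, was 0.957 ± 0.140 with 8OH-G miR-483 and 5.96 ± 1.58 with miR-483 (mean ± SD, n = 3 each).

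ISG20, an exonuclease that degrades viral RNA, had 7.33, 10.5 and 5.98 FPKM in the 8OH-G miR-483 libraries, against 3.63, 4.21 and 4.25 FPKM in the miR-483 libraries. The 8OH-G miR-483 libraries spread more widely, but all were above the miR-483 libraries (limma log2 fold change 0.80, SE 0.17, adjusted p = 0.00338). IFIT5, which binds viral RNA ends, averaged 1.44 ± 0.234 FPKM with 8OH-G miR-483 and 0.944 ± 0.118 FPKM with miR-483 (limma log2 fold change 0.33, SE 0.10, adjusted p = 0.02002). Its call was lost without 8OH-G miR-483 replicate 2 and without miR-483 replicate 3. IFIT5 and OAS3 reached 1 FPKM in every 8OH-G miR-483 library but not in every miR-483 library. Their place in the count of higher calls therefore rests in part on the group where they are higher. IFIT3 was not called (limma log2 fold change -0.21, adjusted p = 0.139).

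**Figure D3:**
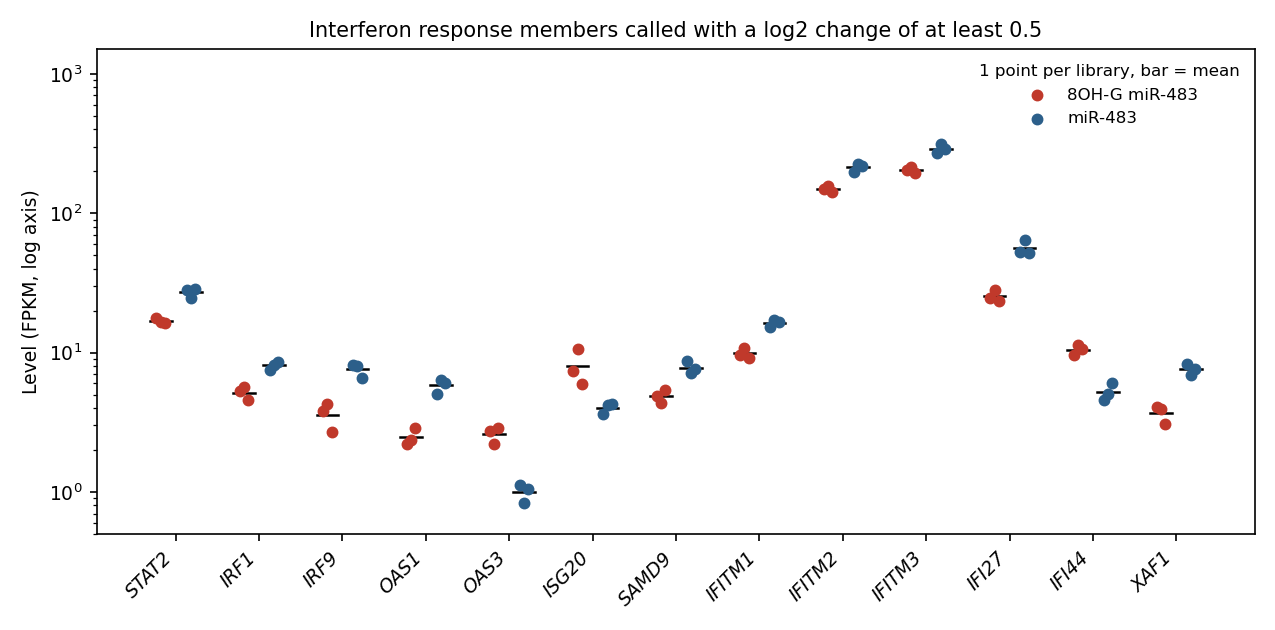
FPKM of interferon-response members called with a log2 fold change of at least 0.5 in size, in each library (points, log axis), with the group mean (bar), 8OH-G miR-483 left of miR-483. OAS1 and OAS3 shift in opposite directions, and STAT2, IRF1, IRF9, SAMD9, the IFITM genes, IFI27 and XAF1 are lower with 8OH-G miR-483.

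The interferon-induced transmembrane proteins, which block viral entry, fell together. IFITM3 had 203, 215 and 196 FPKM in the 8OH-G miR-483 libraries, against 270.1, 312 and 289 FPKM in the miR-483 libraries. IFITM2 had 149, 157 and 142 FPKM in the 8OH-G miR-483 libraries, against 198, 227 and 219 FPKM in the miR-483 libraries. IFITM1 had 9.68, 10.8 and 9.19 FPKM in the 8OH-G miR-483 libraries, against 15.3, 16.998 and 16.6 FPKM in the miR-483 libraries. In each of these 3 genes every 8OH-G miR-483 library was below every miR-483 library. The log2 fold changes were -0.50 for IFITM3, -0.52 for IFITM2 and -0.67 for IFITM1, with limma adjusted p = 0.000822, 0.000633 and 0.000148. IFITM2 and IFITM3 are close copies of each other, so their separate values are uncertain. BST2 (tetherin), which holds budding virus at the cell surface, averaged 31.9 ± 2.67 FPKM with 8OH-G miR-483 and 35.7 ± 3.44 FPKM with miR-483 and was not called (limma log2 fold change -0.15, adjusted p = 0.1801), though both scalings called it lower.

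Of the 2 other antiviral effectors tested, SAMD9 fell and its neighbour SAMD9L was not called (limma log2 fold change -0.07, adjusted p = 0.567). SAMD9 had 4.85, 4.36 and 5.38 FPKM in the 8OH-G miR-483 libraries, against 8.63, 7.09 and 7.63 FPKM in the miR-483 libraries. The groups did not overlap (limma log2 fold change -0.58, SE 0.09, adjusted p = 0.000922).

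Among other interferon-induced proteins, IFI27 and XAF1 fell and IFI44 rose. IFI27, a mitochondrial protein widely used as a marker of interferon exposure, had 24.6, 28.2 and 23.4 FPKM in the 8OH-G miR-483 libraries, against 52.6, 63.7 and 52.1 FPKM in the miR-483 libraries. Its mean was 54.8% lower with 8OH-G miR-483, and no library of one group reached the other (limma log2 fold change -1.11, SE 0.10, adjusted p = 3.45e-05). XAF1, a pro-apoptotic interferon-induced protein, had 4.05, 3.92 and 3.08 FPKM in the 8OH-G miR-483 libraries, against 8.34, 6.95 and 7.597 FPKM in the miR-483 libraries. The 8OH-G miR-483 libraries were all lower (limma log2 fold change -0.89, SE 0.10, adjusted p = 0.000136).

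IFI44 had 9.61, 11.3 and 10.6 FPKM in the 8OH-G miR-483 libraries, against 4.53, 5.08 and 6.02 FPKM in the miR-483 libraries. All 8OH-G miR-483 libraries were above all miR-483 libraries, with a ratio of means of 2.02 (limma log2 fold change 0.89, SE 0.10, adjusted p = 0.0001204). IFI35 averaged 3.83 ± 0.675 FPKM with 8OH-G miR-483 and 5.32 ± 0.744 FPKM with miR-483 (limma log2 fold change -0.39, SE 0.12, adjusted p = 0.0243), and its call was lost without 8OH-G miR-483 replicate 1, 8OH-G miR-483 replicate 3 or miR-483 replicate 2. IFI6 averaged 10.04 ± 1.87 FPKM with 8OH-G miR-483 and 11.2 ± 1.29 FPKM with miR-483 and was not called (limma log2 fold change -0.16, adjusted p = 0.321).

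Of the 3 tested members grouped under ISG15 conjugation, USP18 and HERC6 were called higher and ISG15 was not called. ISG15, a ubiquitin-like modifier, averaged 25.8 ± 4.91 FPKM with 8OH-G miR-483 and 23.1 ± 2.99 FPKM with miR-483 and was not called (limma log2 fold change 0.14, SE 0.14, adjusted p = 0.399). USP18, which also restrains interferon receptor signalling, averaged 11.2 ± 0.518 FPKM with 8OH-G miR-483 and 8.03 ± 0.343 FPKM with miR-483 (limma log2 fold change 0.43, SE 0.07, adjusted p = 0.000766). USP18 has a near-identical copy, USP41, so its value is uncertain. HERC6, a HERC-family ubiquitin ligase, averaged 1.22 ± 0.0972 FPKM with 8OH-G miR-483 and 0.707 ± 0.05204 FPKM with miR-483 (limma log2 fold change 0.38, SE 0.08, adjusted p = 0.00417). No miR-483 library reached 1 FPKM for HERC6, so it was tested only because it is higher with 8OH-G miR-483, and its call adds no support to the count.

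Of the 24 calls, 16 had a log2 fold change of at least 0.5 in size, and those of HLA-E and IFI27 were at least 1. Tested in limma against a fold of 1.2 in place of no change, the calls on DDX58, IFIT5, HERC6, USP18, IFI35, HLA-B, TAP1 and TAP2 were lost and the other 16 stood. The 12 tested members that were not called had log2 fold changes from -0.24 to 0.19 and adjusted p from 0.0542 to 0.647. Their 95% intervals reached at most 0.31 to either side of the estimate.

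Several genes commonly read as signs of an interferon response were near the bottom of the measured range in both groups. IFIT1, IFIT2, OAS2, OASL, MX1, HERC5, IFI44L and CXCL11 did not reach the filter, with values between 0 and 1.53 FPKM, and were not tested. MX1, a GTPase that traps viral particles, had 0.625, 0.739 and 0.789 FPKM in the 8OH-G miR-483 libraries, against 0.8401, 0.862 and 1.04 FPKM in the miR-483 libraries. IFIT1, which binds viral RNA ends, had 0.685, 0.897 and 1.19 FPKM in the 8OH-G miR-483 libraries, against 0.252, 0.193 and 1.53 FPKM in the miR-483 libraries. The 8OH-G miR-483 libraries stood above miR-483 replicates 1 and 2, and miR-483 replicate 3 was the highest of all.

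OASL, a relative of the OAS enzymes, had 0.217, 0.334 and 0.372 FPKM in the 8OH-G miR-483 libraries, against 0.0476, 0.0456 and 0.339 FPKM in the miR-483 libraries. As for IFIT1, miR-483 replicate 3 stood apart from the other miR-483 libraries. CXCL11, a chemokine that draws T cells through CXCR3, had 0.543, 0.711 and 0.615 FPKM with 8OH-G miR-483. It had 0.0627 FPKM in miR-483 replicate 1 and was listed at 0 in the other miR-483 libraries, so no fold is given. HERC5, the ligase that attaches ISG15, had 0.4998, 0.495 and 0.524 FPKM in the 8OH-G miR-483 libraries, against 0.352, 0.281 and 0.418 FPKM in the miR-483 libraries. The HERC5 and MX1 groups did not overlap, HERC5 being higher and MX1 lower with 8OH-G miR-483. IFIT2 averaged 0.601 ± 0.1399 FPKM with 8OH-G miR-483 and 0.624 ± 0.194 FPKM with miR-483, OAS2 0.538 ± 0.139 FPKM with 8OH-G miR-483 and 0.6797 ± 0.0406 FPKM with miR-483 and IFI44L 0.121 ± 0.0182 FPKM with 8OH-G miR-483 and 0.113 ± 0.0225 FPKM with miR-483.

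**Figure D4:**
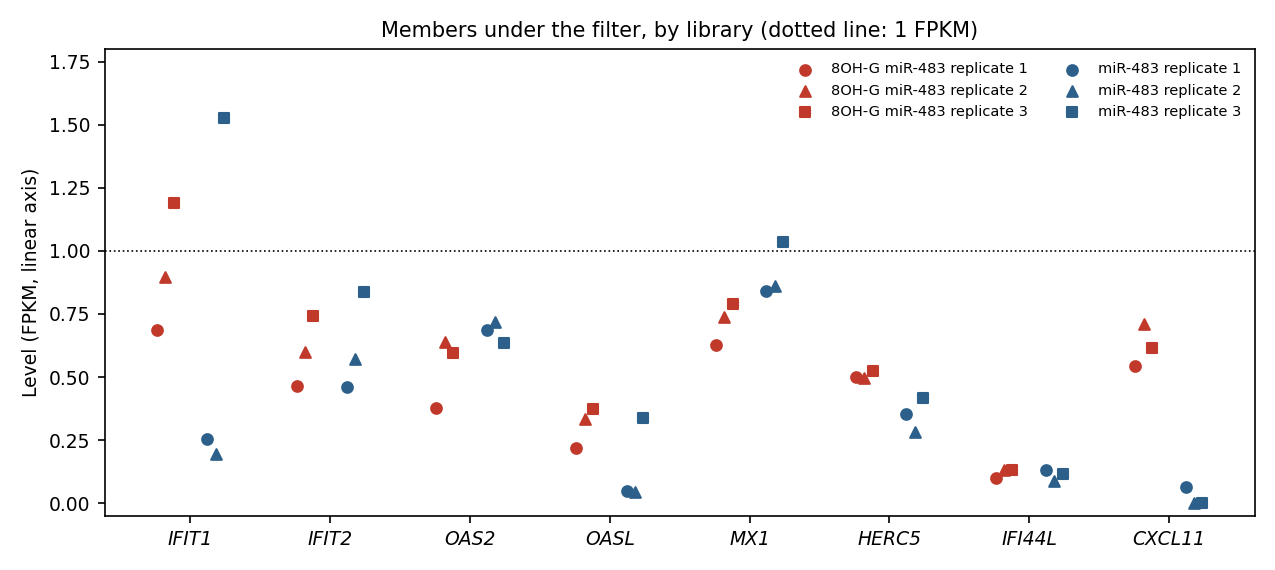
FPKM of the 8 members under the filter in each library (points, shaped by replicate number, linear axis), 8OH-G miR-483 left of miR-483, with a dotted line at the filter of 1 FPKM. No value is above 1.53 FPKM, and miR-483 replicate 3 is the highest library for IFIT1.

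Further genes of the pathway were read from the same fit, in 6 lists that together name 82 genes. Of these, 70 had a value and 62 were tested, with 16 called higher (25.8%, against 34.9% of all names) and 24 lower (38.7%, against 20.5% of all names). Called in either direction were 64.5%, against 55.4% of all names, and the median log2 fold change was -0.08, against 0.09. The lower calls include SECTM1 and PSMB9, which passed the filter only through the miR-483 libraries. Counts in the single lists are small and are read against the same shares. ZBP1, AIM2, IFNB1, IFNL1, IFNLR1, PTPN6, RTP4, GBP5, CXCL9, CD74, HLA-DRA and IFNG had no row and were not analysed here.

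In sensing and induction, 1 of 8 tested genes was called higher and 4 lower (median -0.18). The split was 0 higher and 4 lower with median-ratio scaling, and 1 higher and 5 lower with quantile normalization. TMEM173, which encodes the DNA-sensing adaptor STING, averaged 23.3 ± 2.66 FPKM with 8OH-G miR-483 and 107 ± 1.08 FPKM with miR-483 and was 78.1% lower (limma log2 fold change -2.15, SE 0.09, adjusted p = 9.50e-07). TRIM25, a ubiquitin ligase that acts on RIG-I signalling, averaged 23.1 ± 1.83 FPKM with 8OH-G miR-483 and 43.5 ± 0.834 FPKM with miR-483 (limma log2 fold change -0.89, adjusted p = 2.03e-05). MAVS, the mitochondrial adaptor of the RNA sensors, averaged 11.2 ± 0.427 FPKM with 8OH-G miR-483 and 13.9 ± 1.03 FPKM with miR-483 (limma log2 fold change -0.29, adjusted p = 0.00902). IFI16, a nuclear DNA sensor, averaged 102 ± 4.52 FPKM with 8OH-G miR-483 and 87.4 ± 2.701 FPKM with miR-483 (limma log2 fold change 0.22, adjusted p = 0.020002), a call lost under median-ratio scaling and without 8OH-G miR-483 replicate 1 or 2 or miR-483 replicate 1 or 2. Among interferons and receptors, 0 of 9 tested genes were called higher and 3 lower (median -0.14). These were IFNGR1 (limma log2 fold change -0.45, adjusted p = 0.000891), IFNGR2 (limma log2 fold change -0.48, adjusted p = 0.00205) and IL10RB (limma log2 fold change -0.28, adjusted p = 0.0114), of which the first pair form the interferon-gamma receptor. IFNGR2 stands on more than 1 row, and the mean over its rows gave -0.16, not called (limma adjusted p = 0.686). Under either scaling, 5 of the 9 tested genes of interferons and receptors were called lower.

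The feedback inhibitors were the list with the highest median, 0.49, with 4 of 6 tested genes called higher and 1 lower. With quantile normalization, 4 were called higher and 2 lower. SOCS3, which blocks JAK signalling, averaged 20.8 ± 1.68 FPKM with 8OH-G miR-483 and 5.76 ± 1.01 FPKM with miR-483, a ratio of means of 3.61 (limma log2 fold change 1.70, SE 0.11, adjusted p = 6.58e-06). The phosphatase genes PTPN1 (limma log2 fold change 0.61, adjusted p = 0.000111) and PTPN11 (limma log2 fold change 0.58, adjusted p = 0.000318) also rose. IRF2, which competes with IRF1 for binding sites, was called lower (limma log2 fold change -0.22, adjusted p = 0.0236), and lost that call without 8OH-G miR-483 replicate 1 or 2 or miR-483 replicate 1 or 2.

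Among 22 tested genes of the other interferon-stimulated list, 7 were called higher and 11 lower (median -0.17). The split was 2 higher and 12 lower with median-ratio scaling, and 2 higher and 11 lower with quantile normalization. The death ligand gene TNFSF10 (TRAIL) averaged 6.38 ± 1.63 FPKM with 8OH-G miR-483 and 26.7 ± 2.28 FPKM with miR-483 (limma log2 fold change -1.93, SE 0.16, adjusted p = 2.16e-05). UBA7, the enzyme that activates ISG15 for conjugation, averaged 6.09 ± 0.88002 FPKM with 8OH-G miR-483 and 10.5 ± 0.1904 FPKM with miR-483 (limma log2 fold change -0.71, adjusted p = 0.000324), and PARP14 averaged 6.94 ± 0.432 FPKM with 8OH-G miR-483 and 10.5 ± 0.414 FPKM with miR-483 (limma log2 fold change -0.54, adjusted p = 0.000274). PNPT1, a mitochondrial RNA exonuclease, averaged 11.7 ± 1.21 FPKM with 8OH-G miR-483 and 4.82 ± 0.159 FPKM with miR-483 (limma log2 fold change 1.12, adjusted p = 1.15e-05). LAP3 (limma log2 fold change 0.57, adjusted p = 0.0002598) and PLSCR1 (limma log2 fold change 0.37, adjusted p = 0.0158) were the next higher calls by p. The PLSCR1 call was lost under both scalings and without replicate 3 of either group.

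Of 5 tested genes in the guanylate-binding and interferon-gamma list, 1 was called higher and 3 lower (median -0.48). GBP2 averaged 8.59 ± 1.72 FPKM with 8OH-G miR-483 and 19.6 ± 1.11 FPKM with miR-483 (limma log2 fold change -1.12, adjusted p = 0.000111) and GBP4 averaged 1.54 ± 0.0539 FPKM with 8OH-G miR-483 and 2.56 ± 0.359 FPKM with miR-483 (limma log2 fold change -0.48, adjusted p = 0.00235). GBP1 went the other way, with 3.27 ± 0.183 FPKM with 8OH-G miR-483 and 1.803 ± 0.269 FPKM with miR-483 (limma log2 fold change 0.61, adjusted p = 0.000601). These guanylate-binding proteins are close relatives, so their separate values are uncertain. SECTM1 averaged 0.839 ± 0.101 FPKM with 8OH-G miR-483 and 1.59 ± 0.267 FPKM with miR-483 (limma log2 fold change -0.49, adjusted p = 0.00312). It passed the filter only through the miR-483 libraries, so its call adds no support to the count. In the immunoproteasome and peptide-loading list, 3 of 12 tested genes were called higher and 2 lower (median -0.07). The lower calls numbered 5 under median-ratio scaling and 4 under quantile normalization. PSMB9, an immunoproteasome subunit, averaged 0.754 ± 0.102 FPKM with 8OH-G miR-483 and 1.52 ± 0.411 FPKM with miR-483 (limma log2 fold change -0.51, adjusted p = 0.009001). It likewise passed only through miR-483, so its call adds no support to the count. TAPBPL, a tapasin relative, averaged 2.71 ± 0.115 FPKM with 8OH-G miR-483 and 4.102 ± 0.263 FPKM with miR-483 (limma log2 fold change -0.46, adjusted p = 0.00103). The chaperone calnexin (CANX, limma log2 fold change 0.51, adjusted p = 0.00222), the proteasome activator subunit PSME2 (limma log2 fold change 0.42, adjusted p = 0.00717) and the class II and class I promoter factor RFXAP (limma log2 fold change 0.38, adjusted p = 0.00433) rose.

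**Figure D5:**
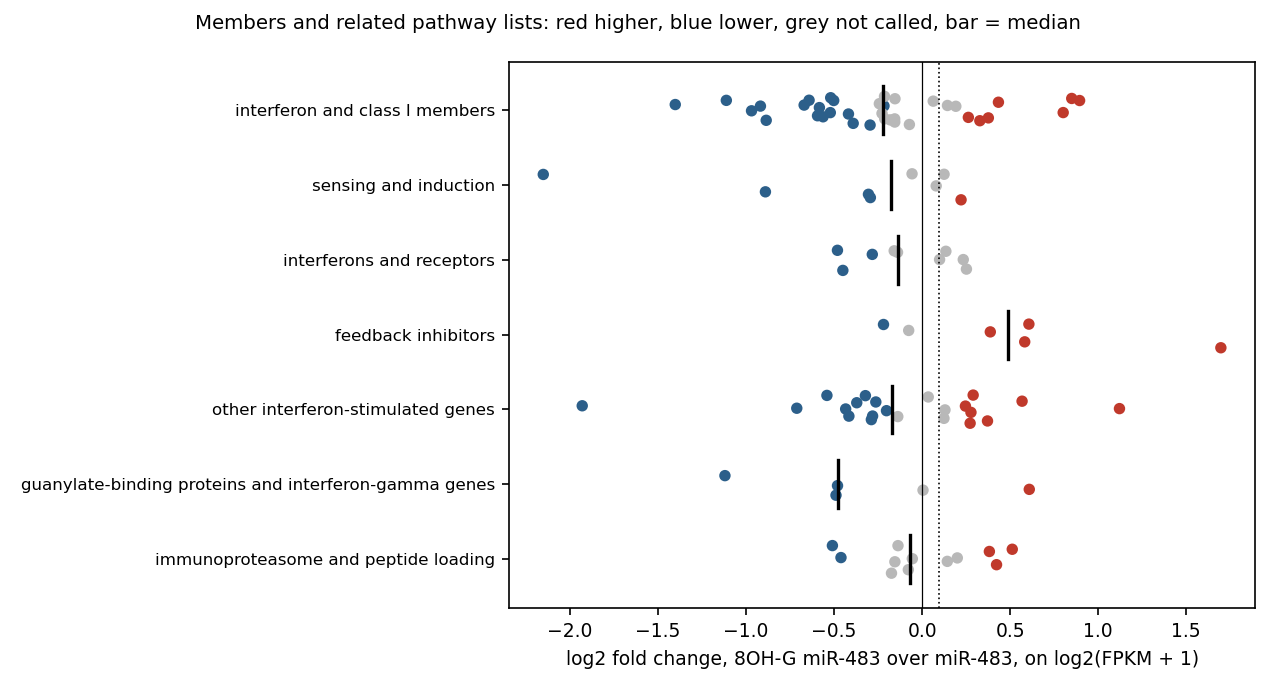
Log2 fold change of each tested gene (points, red higher, blue lower, grey not called), 8OH-G miR-483 over miR-483 on log2(FPKM + 1), for the interferon and class I members and 6 related lists, with each list's median (bar) and the median of all names (dotted line). The medians run from -0.48 for the guanylate-binding list to 0.49 for the feedback inhibitors.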

How the data were processed

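Expression values came from 6 HUVEC libraries, 3 with 8OH-G miR-483 and 3 with miR-483. Tools named by the submitters' processing notes are STAR, HTSeq, cutadapt and DESeq2, with build hg19 and without versions or order. Each deposited file holds decimal values with no stated unit. They were inferred to be FPKM made by the authors, since column totals exceed what TPM can reach. Low values were checked for whole-read ratios (45.0% of 2941 low genes within tolerance at the best of 201 depth ratios, median 42.4%). That check covered ratios of few reads only and, with depth unknown, cannot show whether values are whole multiples of 1 read. Since the values are decimals, limma 3.58.1 in R 4.3.3 was used in place of a count test. Strand and shared reads are not described, and 24 rows with names turned into dates were left out.

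A name on several rows took its highest value per library. Names at 1 FPKM or more in 3 or more libraries were fitted on log2(FPKM + 1), with trend and robust variance shrinkage and group as the only term. Adjusted p-values are Benjamini-Hochberg over all tested names, with a threshold of 0.05. The fit was tested on simulated data. The members and lists were chosen with earlier results of these data known. Values per library are given for called members with a log2 fold change of at least 0.5 in size, the class I chains, the 3 transcription factors of highest mean and some members chosen after their values were seen. Each list names its called genes, at most 3 per direction by smallest p. Promoters are from RefSeq (GRCh38.p14) and carry the only coordinates. Alternatives covered the pseudocount, filters, scaling, rows per name, shrinkage, a fold threshold, a replicate block and each library left out. Some interferon and class I genes are not reported here. Figures were drawn with Python 3.11.15.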

Additional observations from a re-analysis of the deposited data

How the results depend on the processing

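Of the 24 called members, 12 kept their call in all 17 alternatives (STAT2, IRF1, IRF9, OAS1, OAS3, ISG20, SAMD9, IFITM1, IFITM2, IFITM3, IFI44 and XAF1, where the alternative left them tested). Among called members, the mean over the rows of a name turned HLA-B to 0.35 (limma adjusted p = 0.715), HLA-C to 0.31 (0.786), TAP1 to 0.43 (0.645) and TAPBP to 0.22 (0.794). The uncalled B2M, HLA-F and IRF7 also turned positive. That setting ended the calls on HLA-E, IFI27 and TAP2, and left 11 members lower and a median of -0.11. By construction it includes the rows at 0 in miR-483 replicate 1. Leaving out repeated names gave 11 lower among the 26 members then tested, none of which changed its call. A minimum of 5 FPKM gave 4 higher and a median of -0.46 among the 26 members then tested, again with no call changed. A fold threshold of 1.2 gave 3436 names called (2257 higher, 1179 lower) and 3 members higher. The member median was -0.32 with a pseudocount of 0.1, -0.15 with 5, -0.31 with median-ratio scaling and -0.32 with quantile normalization. Leaving out 1 library at a time gave 5928 to 6472 names called (3697 to 4100 higher, 2027 to 2490 lower), 20 to 23 members called (5 to 7 higher, 15 to 18 lower) and a median of -0.28 to -0.22. With a replicate block, 7594 names and 26 members were called (7 higher, 19 lower), B2M and IFIH1 being gained. The deviations of same-numbered libraries from their group means correlated at 0.0171, 0.332 and 0.0118, so the numbers were not taken to pair them. Depth is unknown, and values under 1 FPKM were not tested.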

Other observations

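In 9 members, replicate 3 was the highest library of both groups (DDX58, NLRC5, IFIT1, IFIT2, IFIT3, OASL, MX1, HERC5 and USP18), chosen after their values were seen. Of these, 5 belong to the 8 members too low to test. The share of all names with the same pattern is not given, so the count is a description only. IFIT2 reached 0.743 FPKM in 8OH-G miR-483 replicate 3 and 0.838 FPKM in miR-483 replicate 3, while its other libraries were at 0.463 and 0.598 FPKM with 8OH-G miR-483 and 0.461 and 0.572 FPKM with miR-483.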
